A study of Homo sapiens with 16 samples.

Results

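The 10 genes described here are NF-kappaB target genes with known roles as chemokines or cytokines (CCL20, CXCL8, IL23A), an adhesion receptor (ICAM1), feedback inhibitors and survival factors (TNFAIP3, NFKBIA, BIRC3), NF-kappaB subunits (RELB, NFKB2) and an antioxidant enzyme (SOD2). They were chosen by gene symbol, and every probe that the platform annotation gives to one of them was taken, 12 of 24530 probes in all. These probes cover 8 of the 10 genes, since NFKBIA and BIRC3 are not analysed here. Of the 8 genes, 7 were tested after a filter on dim probes, and ICAM1 was not detected on any of 16 arrays. CXCL8 and IL23A passed that filter only through the overexpression lines, so a difference of those lines from the rest had to follow for them.

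RNA was measured on Illumina bead arrays in T47D-MTVL, a luminal human breast cancer cell line with a stable luciferase reporter driven from the MMTV promoter. The 16 arrays form 8 groups of 2. The Ctrl line carries a random hairpin, sh120 one directed at linker histone H1.4 and sh225 one directed at several H1 variants. All 3 express a KRAB repressor fused to the Tet regulator together with RedFP, were sorted for RedFP and GFP after a short Dox exposure, and were grown without doxycycline (Dox: groups Ctrl, sh120 and sh225) or with 2.5 µg/ml of it for 6 days (Ctrl_Dox, sh120_Dox and sh225_Dox). Dox-treated cells were passaged at day 3 and moved to serum-free medium at day 4, and the sources used here do not give whether the untreated arms were moved too. The groups WT and K26 are untreated lines that overexpress HA-tagged H1.4, as wild type or with the K26A substitution. Each construct is represented by a single line, and nothing in the labels says that the arrays of a group came from separate cultures, so p-values measure only the spread between these arrays.

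NF-kappaB is a family of dimeric transcription factors that IkB proteins hold in the cytoplasm until the IKK complex marks those inhibitors for destruction. Freed dimers switch on inflammatory genes and, among them, their own brakes: NFKBIA encodes the inhibitor IkB-alpha and TNFAIP3 encodes A20, which edits ubiquitin chains on upstream signalling proteins. A second, non-canonical branch works through RELB paired with the product of NFKB2. Epithelial cells use the pathway to release chemokines that draw in leukocytes. Linker histones, at which the hairpins are directed, sit on the nucleosome where its DNA comes in and goes out.

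Sequence just upstream of the start site is shown for the members whose levels moved most, CCL20, CXCL8, IL23A and TNFAIP3, from the RefSeq promoter table (GRCh38.p14, plus strand, 5′ to 3′). Capitals mark matches to a kappaB motif on either strand. The runs of CCL20, CXCL8 and IL23A span positions -120 to -21 from the start site and that of TNFAIP3 -70 to -43.
CCL20 (chr2:227813722-227813821): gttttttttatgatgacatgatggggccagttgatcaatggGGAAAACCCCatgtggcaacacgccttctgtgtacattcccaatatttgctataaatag
CXCL8 (chr4:73740449-73740548): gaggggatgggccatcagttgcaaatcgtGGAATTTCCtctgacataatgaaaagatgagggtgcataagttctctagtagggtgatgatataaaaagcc
IL23A (chr12:56338764-56338863): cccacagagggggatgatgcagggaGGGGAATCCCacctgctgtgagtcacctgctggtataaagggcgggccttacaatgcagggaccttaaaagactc
TNFAIP3 (chr6:137867189-137867216): tttGGAAAGTCCCgtGGAAATCCCCggg
Both strands were searched for the degenerate 10-base kappaB consensus and for GGAATTTCC, which can lie inside it. In windows from 250 bases before to 50 after the start, 2075 of 35116 RefSeq promoters (5.91%) held the consensus and 162 (0.461%) held GGAATTTCC. The consensus was found in the windows of CCL20, TNFAIP3, IL23A, NFKBIA and BIRC3, and in 2 of 3 windows of NFKB2. TNFAIP3 had a pair of matches, at -67 to -58 and -55 to -46. GGAATTTCC was found in CXCL8 at -91 to -83, in ICAM1 and, within its consensus match, in NFKBIA. None of the 4 SOD2 windows held either. RELB was not matched in that table. These letters describe the windows and show no binding.

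With Dox, CCL20 and SOD2 were lower in the Ctrl and sh120 lines, TNFAIP3 was lower in Ctrl, RELB was lower in sh120, and TNFAIP3, SOD2 and RELB were higher in sh225. Of the 7 tested members, 4 were lower in the Ctrl line at an adjusted p under 0.05 (limma), where 2.98% of all 9654 tested items were called in either direction and 1.53% were lower. Leaving out any 1 array of that comparison gave 2 to 3, with 2 without Ctrl replicate 1 or Ctrl_Dox replicate 1. In the sh120 line 4 members were lower, with 16.5% of items called and 8.43% lower. One of the 4 in each of these lines, CXCL8, was undetected with and without Dox. In the sh225 line 3 members were higher and 0 were lower, with 35.6% of items called and 17.1% higher, so a count of 3 of 7 there is near the share of all items. Over the 5 members detected in all groups (CCL20, TNFAIP3, SOD2, RELB and NFKB2), 3 were lower in Ctrl, 3 lower in sh120 and 3 higher in sh225, with median log2 differences of -0.80, -0.54 and 0.56. The medians over all items were 0.01, 0.01 and 0.03.

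**Figure D1:**
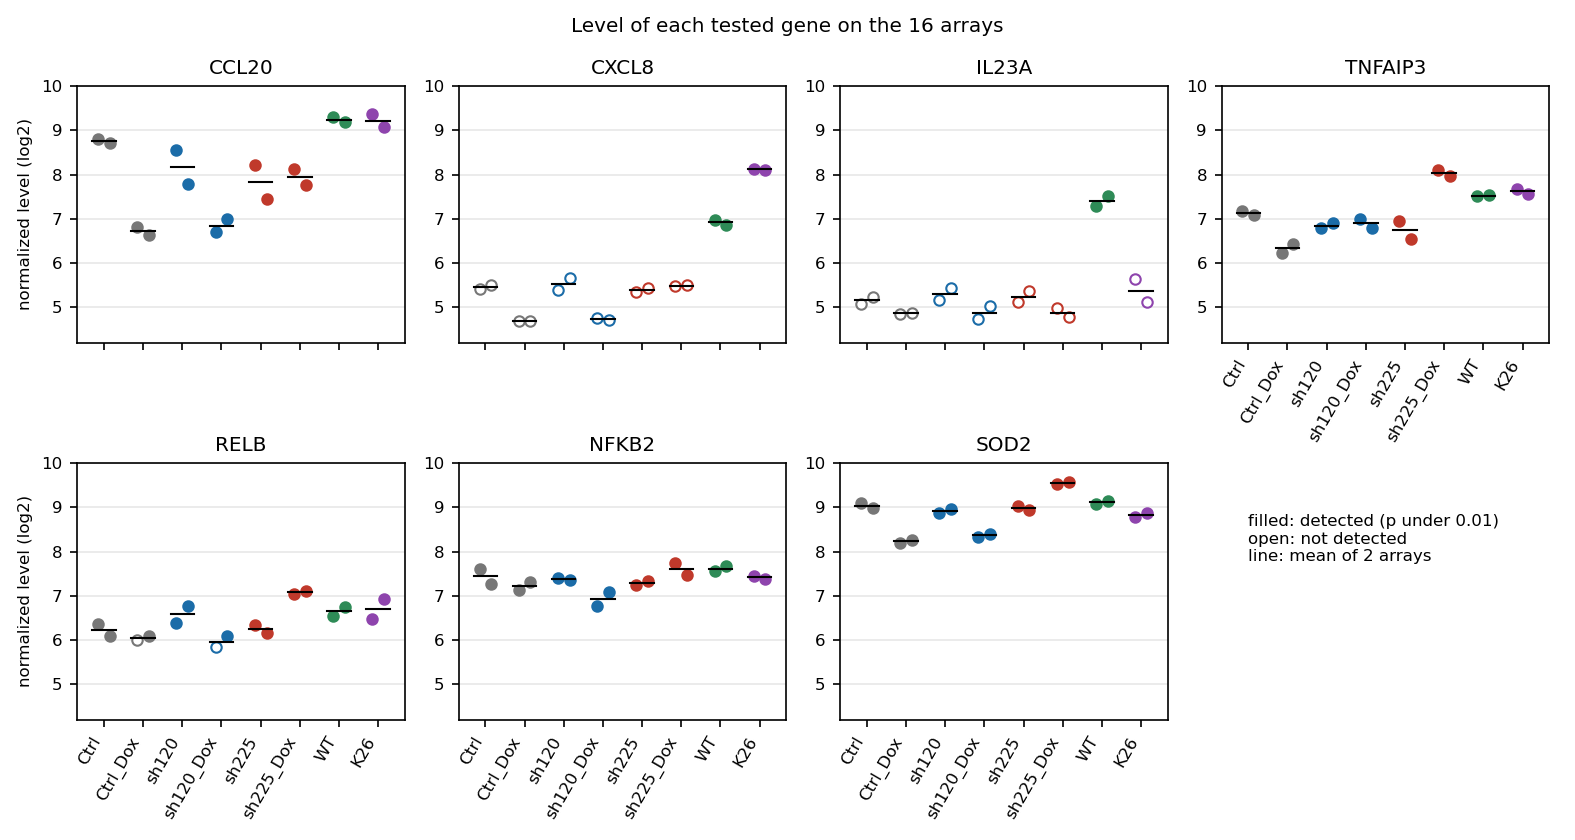
Normalized log2 level of the 7 tested genes on each of the 16 arrays, with groups along the horizontal axis, filled points for arrays on which the probe was detected (p under 0.01), open points where it was not, and a line at the mean of 2 arrays. CCL20 drops with Dox in the Ctrl and sh120 lines, TNFAIP3 is highest in sh225_Dox, and CXCL8 and IL23A are open outside the overexpression lines.

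CCL20, the ligand of the receptor CCR6 and an attractant of Th17 and dendritic cells, had the largest Dox difference in the Ctrl and sh120 lines among the members measured in all groups. Its normalized log2 level was 8.81 and 8.71 on the Ctrl arrays and 6.82 and 6.63 on the Ctrl_Dox arrays. In sh120 it was 8.56 and 7.79, against 6.70 and 6.99 in sh120_Dox. In sh225 it was 8.22 and 7.45, against 8.12 and 7.76 in sh225_Dox. The Ctrl and sh120 arrays with Dox thus lay below all arrays without it, while both sh225_Dox arrays lay between those of sh225. CCL20 fell by 2.04 ± 0.23 (log2 ± SE, adjusted p = 1.65e-05) in Ctrl and by 1.33 ± 0.23 (adjusted p = 0.000916) in sh120. In sh225 the difference was 0.10 ± 0.23 (95% interval -0.38 to 0.59, adjusted p = 0.763). The authors' normalized table gave smaller CCL20 differences, -1.28 in Ctrl and -0.79 in sh120, both still called.

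The gene spans chr2:227813842-227817556 (GRCh38.p14). Its order over the 8 groups ran from Ctrl_Dox (6.72 ± 0.14, mean log2 ± SD, n = 2) and sh120_Dox (6.84 ± 0.20) through sh225 (7.84 ± 0.54), sh225_Dox (7.94 ± 0.26), sh120 (8.18 ± 0.54) and Ctrl (8.76 ± 0.07) to K26 (9.22 ± 0.22) and WT (9.24 ± 0.08). Neighbours up to sh120 were separated by no more than their spread, apart from the step from sh120_Dox to sh225, and K26 and WT did not differ beyond theirs. The untreated lines themselves spread: the CCL20 difference of sh225 minus Ctrl was -0.92 ± 0.23, with an adjusted p of 0.0757 that passed the threshold under 4 alternatives. The arrays of that pair did not overlap, and they belong to different runs of array numbers (described with the overexpression lines). By limma 0 of the 7 members were called between sh225 and Ctrl (0.456% of items called), and 2 had an unadjusted p under 0.05. Between sh120 and Ctrl 0 were called as well (0.0207% of items), and 1 had an unadjusted p under 0.05.

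CXCL8 encodes interleukin 8, a neutrophil attractant. Its probe was detected on both WT and both K26 arrays and on 0 of the 12 arrays from hairpin lines. The WT arrays stood at log2 6.98 and 6.86 and the K26 arrays at 8.13 and 8.11, against 4.69 to 5.67 on the 12 hairpin arrays. The K26 arrays were above the WT arrays, and all 4 were above every other array. CXCL8 was higher in K26 than in WT by 1.20 ± 0.16 (log2 ± SE, adjusted p = 6.27e-05), and by 0.70 in the authors' normalized table. Its level was at least 2.03-fold that of Ctrl in WT and at least 4.65-fold in K26, given as a description since the probe passed the filter only through these lines. These bounds set the bright group against the lowest detected signal of the dim arrays. With Dox the undetected CXCL8 signal went from 5.41 and 5.51 to 4.69 and 4.70 in Ctrl and from 5.39 and 5.67 to 4.75 and 4.71 in sh120. In sh225 it read 5.34 to 5.51 with and without Dox. Both decreases were among the 4 called in Ctrl and in sh120, and since neither side was detected no fold is given.

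IL23A, the p19 subunit that forms interleukin 23 with the product of IL12B, was detected on the 2 WT arrays only. It read 7.29 and 7.51 there and 5.63 and 5.12 on the K26 arrays, and from 4.74 to 5.44 on the hairpin arrays. WT thus stood apart from all other groups, K26 included. As a description, since only the WT arrays brought IL23A past the filter, its WT level was at least 2.82-fold that of K26 and at least 2.83-fold that of Ctrl. IL12B was not detected on any array.

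ICAM1 encodes a cell-surface receptor for leukocyte integrins. Its probe read log2 4.74 to 5.87, and the lowest detection p was 0.0105, on a WT array, so it stayed just outside the detection threshold of 0.01. Arrays of 1 group could differ by nearly that whole range, as in sh225_Dox at 5.81 and 4.74. No comparison of ICAM1 was made.

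TNFAIP3, the A20 brake, rose with Dox in the sh225 line and fell in the Ctrl line. On the sh225 arrays it read log2 6.94 and 6.55, against 8.10 and 7.97 on the sh225_Dox arrays. On Ctrl it read 7.17 and 7.08, against 6.23 and 6.43 on Ctrl_Dox. Neither pair of groups overlapped, and sh225_Dox was above every other group. The rise in sh225 was 1.30 ± 0.15 (adjusted p = 2.33e-06), with 0.72 in the authors' normalized table. In Ctrl the fall was -0.80 ± 0.15 (adjusted p = 0.00462), a call lost without Ctrl replicate 1 (adjusted p = 0.0596) or Ctrl_Dox replicate 1 (adjusted p = 0.0849). It was -0.35 in the authors' normalized table and -0.52 without background correction. In sh120, with arrays at 6.79 and 6.90 without and 7.01 and 6.79 with Dox, TNFAIP3 differed by 0.05 ± 0.15 (95% interval -0.27 to 0.37, adjusted p = 0.860). The gene lies at chr6:137866349-137883312 (GRCh38.p14).

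RELB, the transcriptional partner in the non-canonical branch, had signals near the detection limit. It read 6.35 and 6.16 on sh225 and 7.04 and 7.12 on sh225_Dox, 6.39 and 6.77 on sh120 and 5.85 and 6.08 on sh120_Dox, and 6.37 and 6.09 on Ctrl and 6.00 and 6.09 on Ctrl_Dox. The sh225 and sh120 pairs separated in opposite directions, and 1 of 2 arrays was undetected in each of sh120_Dox and Ctrl_Dox. RELB rose by 0.82 ± 0.19 (adjusted p = 0.00192) in sh225, with 0.35 in the authors' normalized table and 0.53 without background correction. It fell by 0.62 ± 0.19 (adjusted p = 0.0302) in sh120, with -0.22 and -0.36 in these settings. That call was lost without the filter on dim probes (adjusted p = 0.0976), under median scaling (0.0575) and without sh120 replicate 2 (0.249), sh120_Dox replicate 1 (0.186) or sh120_Dox replicate 2 (0.0519). The Ctrl difference was -0.19 ± 0.19 (adjusted p = 0.687).

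NFKB2, whose p100 product both restrains RELB and yields its p52 partner, did not pass the test with Dox in any line. Its differences were 0.32 ± 0.16 in sh225 (adjusted p = 0.113), -0.45 ± 0.16 in sh120 (adjusted p = 0.0549) and -0.22 ± 0.16 in Ctrl (adjusted p = 0.525). Over all 16 arrays it ran only from 6.78 to 7.75. A second detected NFKB2 probe gave 0.17 ± 0.16, -0.25 ± 0.16 and -0.36 ± 0.16 in that order of lines, none of them called, and another NFKB2 probe was undetected on all arrays.

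SOD2, the mitochondrial superoxide dismutase, had the smallest standard error of the 7 members. The sh225 arrays read 9.03 and 8.93 and those of sh225_Dox 9.53 and 9.57. Those of sh120 read 8.87 and 8.95, against 8.33 and 8.40 in sh120_Dox. The Ctrl arrays read 9.11 and 8.97, against 8.20 and 8.27 in Ctrl_Dox. No treated array overlapped its untreated group. SOD2 rose by 0.56 ± 0.11 (adjusted p = 0.000555) in sh225, and fell by 0.54 ± 0.11 (adjusted p = 0.00309) in sh120 and by 0.81 ± 0.11 (adjusted p = 0.000175) in Ctrl. A second SOD2 probe was also higher in sh225, by 0.86 ± 0.17 (adjusted p = 0.000804). In Ctrl it read 6.04 and 6.50 and was undetected with Dox, at 5.55 and 5.53, and the difference was called (adjusted p = 0.0251). In sh120 it read 6.16 and 6.28 and was undetected with Dox, at 5.95 and 5.92, and the difference was not called (adjusted p = 0.297), unlike that of the tested probe. The remaining SOD2 probe was undetected on all arrays.

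**Figure D2:**
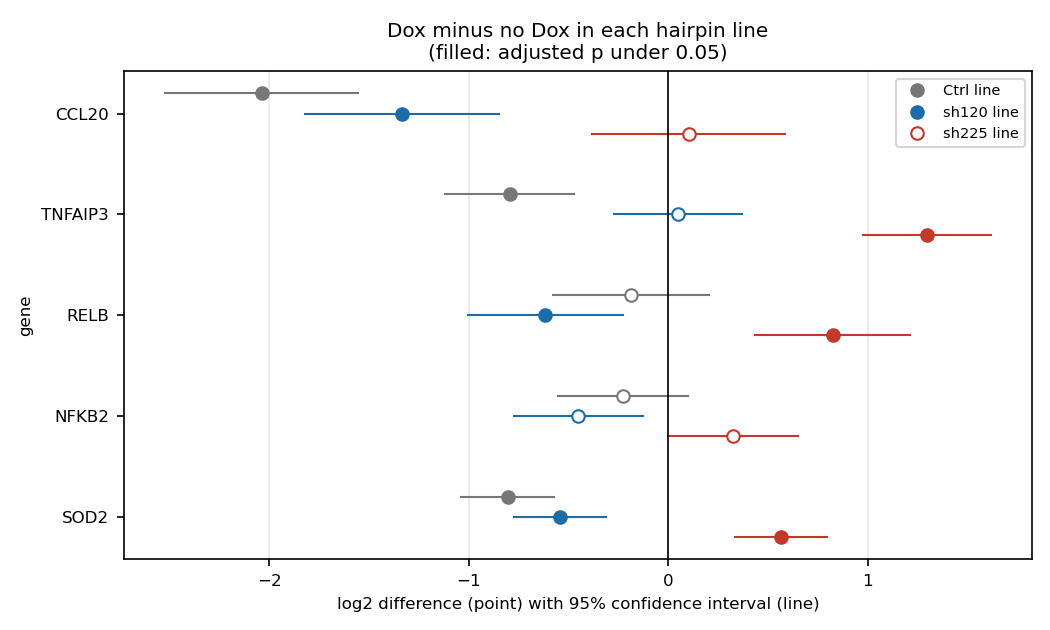
Log2 difference between Dox and no Dox (point) with its 95% confidence interval (line) for the 5 members measured in all groups, by hairpin line. Filled points have an adjusted p under 0.05. The sh225 points lie to the right of the other lines for all 5 genes, with CCL20 at 0.10 in sh225 against -2.04 in Ctrl.

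The Dox effects were then compared between lines, which sets the response in a hairpin line against that in the random hairpin line or another. The sh225 arrays belong to another run of array numbers than the Ctrl and sh120 arrays (described with the overexpression lines). Each Dox effect lies within a run. In the differences of sh225 from Ctrl and from sh120, however, the run and the line cannot be told apart. Between sh225 and Ctrl 5 of 7 members had a higher effect (16.3% of items called, 6.66% higher), among them CXCL8, undetected in all 4 groups. CCL20 differed by 2.14 ± 0.33 (adjusted p = 0.000110), TNFAIP3 by 2.09 ± 0.22 (adjusted p = 1.30e-06), SOD2 by 1.37 ± 0.16 (adjusted p = 4.16e-06) and RELB by 1.01 ± 0.26 (adjusted p = 0.0115). For CCL20 the difference came with a fall in Ctrl and a near-zero value in sh225, and for TNFAIP3 and SOD2 with movement in both lines. RELB missed the threshold when Ctrl replicate 1 (adjusted p = 0.0596), sh225 replicate 2 (0.0582) or the filter (0.0505) was left out. In the authors' normalized table these differences were 1.33 for CCL20, 1.08 for TNFAIP3 and 0.41 for RELB. NFKB2 differed by 0.55 ± 0.22 (adjusted p = 0.0993).

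Between sh225 and sh120 6 of 7 members had a higher effect in sh225 (14.0% of items called, 5.58% higher), CXCL8 again included. The differences were 1.44 ± 0.33 for CCL20, 1.25 ± 0.22 for TNFAIP3, 1.11 ± 0.16 for SOD2 and 1.44 ± 0.26 for RELB, with adjusted p-values of 0.00504, 0.000462, 4.98e-05 and 0.000744. The authors' normalized table gave 0.85 for CCL20, 0.69 for TNFAIP3, 0.58 for RELB and 0.43 for NFKB2. NFKB2 followed at 0.77 ± 0.22 (adjusted p = 0.0225), a call that 7 alternatives ended (adjusted p up to 0.100, when sh120_Dox replicate 1 was left out). The second detected NFKB2 probe gave 0.42 ± 0.22 for sh225 against sh120 and was not called (adjusted p = 0.245). Between sh120 and Ctrl 0 of 7 members were called by limma (0.425% of items called), and 2, CCL20 and TNFAIP3, had an unadjusted p under 0.05. TNFAIP3 differed there by 0.85 ± 0.22 (95% interval 0.39 to 1.30, adjusted p = 0.0888) and CCL20 by 0.70 ± 0.33 (0.02 to 1.39, adjusted p = 0.362).

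The overexpression lines were compared with each other and with untreated hairpin lines. Between K26 and WT 2 of 7 members were called, CXCL8 higher and IL23A lower in K26. With 22.9% of items called (10.1% higher and 12.8% lower), that count is near the share of all items. IL23A had passed the filter through WT alone. CCL20 differed by -0.03 ± 0.23 (95% interval -0.51 to 0.46), TNFAIP3 by 0.10 ± 0.15 (-0.22 to 0.42), RELB by 0.06 ± 0.19 (-0.33 to 0.45), NFKB2 by -0.19 ± 0.16 (-0.52 to 0.13) and SOD2 by -0.28 ± 0.11 (-0.51 to -0.05, adjusted p = 0.0743). The intervals of all these members but SOD2 include 0.

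Of the 5 members detected in all groups, 0 were called in WT against Ctrl by limma and 2, TNFAIP3 and RELB, had an unadjusted p under 0.05 (31.8% of items called, 16.3% higher). In K26 against Ctrl 2 were higher, TNFAIP3 and RELB (51.4% called, 24.2% higher), a count under the share of all items called. CXCL8 in both lines and IL23A in WT were called as well, and the filter fixed this. The Ctrl and sh120 arrays belong to the first of a pair of runs of array numbers in the labels, with median intensities of 78.0 to 89.8. The WT, K26 and sh225 arrays belong to the second, with 97.7 to 105.4, so the run and the line cannot be told apart in these comparisons. The labels do not say whether the runs were hybridized separately. TNFAIP3 read 7.52 and 7.53 in WT and 7.68 and 7.57 in K26, above both Ctrl arrays. It was 0.40 ± 0.15 higher in WT (adjusted p = 0.0548, past the threshold under 7 alternatives) and 0.50 ± 0.15 higher in K26 (adjusted p = 0.0111, lost without Ctrl replicate 2, 0.0608, or K26 replicate 1, 0.0753). The authors' normalized table gave 0.22 and 0.29 for TNFAIP3 in these lines, past the threshold in both, and 0.20 for RELB in K26. RELB in K26 was higher by 0.48 ± 0.19 (adjusted p = 0.0392), a call lost under 5 alternatives, with the highest adjusted p, 0.373, and a difference of 0.25 without K26 replicate 2. CCL20 was 0.48 ± 0.23 higher in WT (adjusted p = 0.120) and 0.46 ± 0.23 higher in K26 (adjusted p = 0.106), each past the threshold under 2 alternatives.

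Within the second run, untreated sh225 is the reference. It carries a hairpin construct and was sorted after a Dox exposure, which is not described for WT and K26. That background and the overexpression cannot be told apart. Against sh225, 2 of the 5 members detected in all groups, CCL20 and TNFAIP3, were higher in WT (35.9% of items called, 18.2% higher). In K26 3 were higher, with RELB added (54.9% called, 26.2% higher). Both counts are near the shares of all items called either way. CCL20 was higher by 1.41 ± 0.23 in WT (adjusted p = 0.000118) and by 1.38 ± 0.23 in K26 (adjusted p = 5.83e-05), with arrays at 9.30 and 9.19 and at 9.37 and 9.06. Both lines lay above the sh225 arrays, on which CCL20 was lower than on the Ctrl arrays. TNFAIP3 also read lower on the sh225 arrays than on the Ctrl arrays (sh225 minus Ctrl -0.38 ± 0.15, adjusted p = 0.263 by limma). TNFAIP3 was higher by 0.78 ± 0.15 in WT (adjusted p = 0.000646) and by 0.88 ± 0.15 in K26 (adjusted p = 9.02e-05), and by 0.40 and 0.47 in the authors' normalized table. As descriptions, CXCL8 was at least 2.10-fold that of sh225 in WT and at least 4.82-fold in K26, and IL23A at least 2.93-fold in WT. RELB in K26 was higher by 0.45 ± 0.19 (adjusted p = 0.0458), a call lost under 5 alternatives, with 0.409 without K26 replicate 2. The authors' normalized table gave a RELB difference of 0.19 there. SOD2 and NFKB2 were not called against either reference with the tested probes. The second SOD2 probe disagreed in WT against Ctrl, where it was higher by 0.65 ± 0.17 (adjusted p = 0.00802), while the tested probe gave 0.07 ± 0.11 (adjusted p = 0.684).

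**Figure D3:**
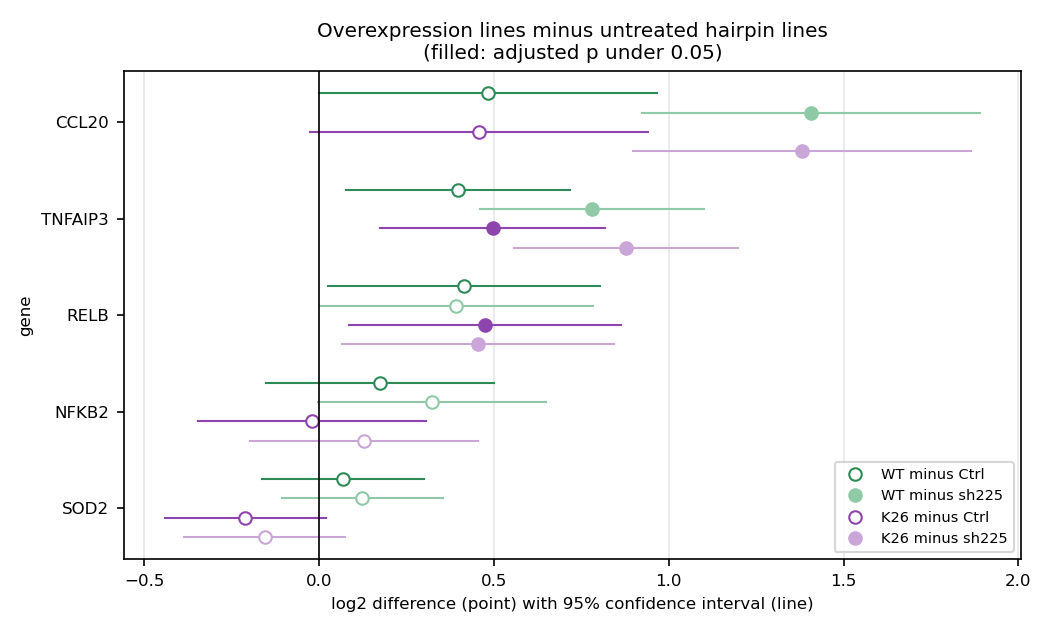
Log2 difference of the WT and K26 lines from untreated Ctrl and from untreated sh225 (point) with its 95% confidence interval (line), for the 5 members measured in all groups. Filled points have an adjusted p under 0.05. CCL20 is called against sh225 (1.41 and 1.38) and not against Ctrl (0.48 and 0.46).

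Other genes of the pathway were taken from lists chosen by role. Of 8 genes for NF-kappaB subunits and IkB proteins, 6 were tested, and with Dox in sh225 3 of them rose and 0 fell (median 0.48). Of all items 35.6% were called in that comparison and 17.1% were higher. NFKB1, the p105 and p50 subunit, rose by 0.62 ± 0.11 (adjusted p = 0.000201). NFKBIZ, a nuclear IkB protein induced by inflammatory signals, rose by 0.62 ± 0.11 (adjusted p = 0.000170) and in Ctrl fell by 0.64 ± 0.11 (adjusted p = 0.00146). Its Dox effect differed between these lines by 1.26 ± 0.15 (adjusted p = 8.68e-06). NFKBIE, the inhibitor IkB-epsilon, was detected on both sh225_Dox arrays and no other array of the hairpin lines. With Dox it was at least 1.27-fold higher than in sh225 (adjusted p = 0.00867). In the tests of the sh225 Dox effect against those of Ctrl and sh120, 1 of the 6 genes, NFKBIZ, was called in each (16.3% and 14.0% of all items called). The Dox effects of NFKB1 and NFKBIE were thus not called as different between lines.

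Of 14 tested genes for ubiquitin editing and other brakes, 3 rose and 2 fell with Dox in sh225. With 35.6% of all items called, that count is near the share of all items. The count of kinases below is under that share, and the count of receptors and adaptors is near it. TNIP1, which binds A20, rose by 0.68 ± 0.12 (adjusted p = 0.000256) and the deubiquitinase CYLD by 0.63 ± 0.20 (adjusted p = 0.0187), while TNFAIP8, an apoptosis regulator, fell by 0.65 ± 0.16 (adjusted p = 0.00450). Among 10 tested IKK and upstream kinases 1 rose and 1 fell: RIPK2, the NOD receptor kinase, by 0.50 ± 0.11, and IKBKE, an IKK-related kinase, by 0.37 ± 0.14. Of 9 tested receptors and adaptors 2 rose and 2 fell. The adaptors TICAM1 and TRAF6 rose by 0.72 ± 0.14 and 0.64 ± 0.17, and the interleukin 1 co-receptor IL1RAP was at least 1.11-fold lower, being undetected with Dox.

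Of 17 other NF-kappaB targets tested, 3 rose and 2 fell with Dox in sh225, 0 rose and 4 fell in sh120, and 0 rose and 4 fell in Ctrl. IRF1, an interferon-response factor, rose by 1.54 ± 0.18 in sh225 (adjusted p = 1.59e-06), where MMP9, a gelatinase, fell by 1.18 ± 0.15 (adjusted p = 7.52e-06). LCN2, an iron-sequestering protein, fell by 1.56 ± 0.08 in sh120 and 1.31 ± 0.08 in Ctrl. The complement factor CFB fell by 1.50 ± 0.12 and 1.52 ± 0.12 in these lines. TNFAIP2 fell by 0.87 ± 0.17 and 1.11 ± 0.17 there and rose by 0.76 ± 0.17 in sh225. In the test of sh225 against Ctrl 6 of the 17 had a higher Dox effect and 1 a lower one, with TNFAIP2 at 1.87 ± 0.23, IRF1 at 1.51 ± 0.25 and LCN2 at 1.48 ± 0.11. Beside these lists the percentages of all items called are those given for the same comparisons above. With Dox in sh225 the count of other targets called is under the 35.6% of all items. The sh120 and sh225 comparisons with Ctrl share the Ctrl arrays.

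**Figure D4:**
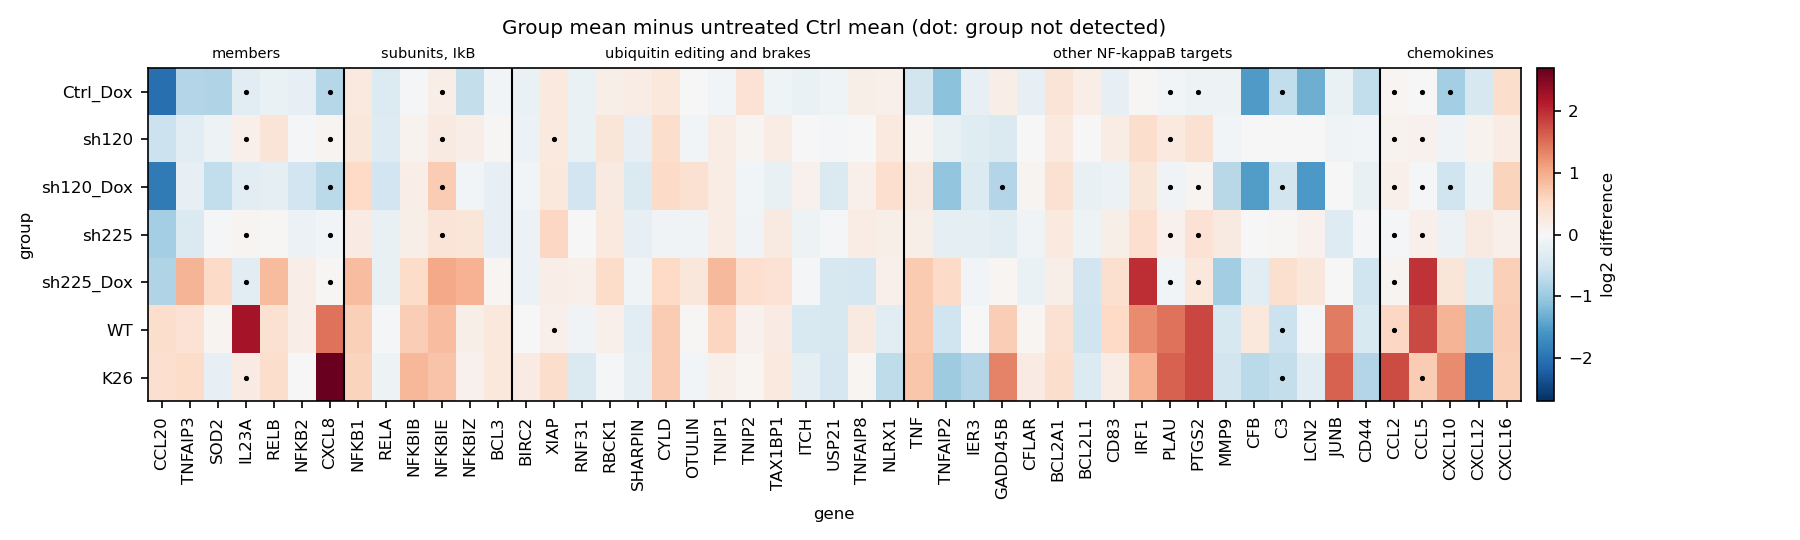
Mean log2 level of each group minus the untreated Ctrl mean, as colour, for the 7 tested members and the tested genes of 4 pathway lists, with a dot where no array of the group detected the probe. CCL20, CFB and LCN2 are blue in Ctrl_Dox and sh120_Dox, and CXCL8 is darkest red in K26.

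Chemokines other than the members were mostly undetected in these cells: of 29 with a probe, 24 failed the filter, CXCL1, CXCL2 and CXCL3 among them, undetected on all arrays. CCL5, a T cell attractant, was undetected in sh225 and at least 2.04-fold higher with Dox (adjusted p = 2.61e-05). It was also detected in WT and not in K26, at least 1.74-fold higher in WT (adjusted p = 0.00588). CCL2, a monocyte attractant, was detected on the 2 K26 arrays alone, which brought it past the filter, and as a description was at least 1.56-fold above WT. CXCL12, the ligand of CXCR4, was lower in WT than in Ctrl by 0.95 ± 0.12 and lower in K26 than in WT by 0.96 ± 0.12 (adjusted p = 1.60e-05).

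Targets such as PTGS2, the inducible cyclooxygenase, and PLAU, a secreted protease, were undetected in Ctrl. They were at least 2.31-fold and 1.54-fold higher in WT, across the runs of array numbers. They were at least 2.31-fold and 1.69-fold higher in K26. PLAU was detected on the 4 arrays of these lines and no others, and PTGS2 on these and 1 sh120 array. Both would have failed the filter without these lines, so their values are a description. Of the 17 other targets 7 were higher and 4 lower in WT than in Ctrl, and 7 higher and 8 lower in K26. PTGS2 and PLAU are among those higher in each line, so these counts lean on the filter. Of all items 31.8% were called in WT and 51.4% in K26 against Ctrl. Of the chemokine and interleukin receptors of the members, CCR6 was detected on all arrays, at log2 13.73 to 14.06 for the brighter of 2 probes. CXCR1, CXCR2, IL23R and IL12RB1 were not detected on any. That CCR6 signal is as bright as that of the epithelial marker KRT19 (13.72 to 14.23), and whether it comes from CCR6 RNA was not tested. The integrin chains ITGAL and ITGB2, partners of ICAM1, were detected on 15 and 8 of 16 arrays, and ITGAM on 0.

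The genes whose group means ran most like CCL20, among 3516 genes with an SD of at least 0.3 over the 8 groups, were AKR1C2 (Pearson r = 0.950), COXFA4L3 (0.940) and TXNRD1 (0.929). For TNFAIP3 they were PRXL2C (r = 0.975), ERRFI1 (0.975) and KYNU (0.946). These are descriptions over 8 means from shared arrays and carry no test.

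As a check of the labels, H1-2, one of the H1 variant genes, fell by 2.75 ± 0.15 with Dox in sh225 (adjusted p = 6.09e-11). It was detected on only 1 of the 2 sh225_Dox arrays. In Ctrl H1-2 rose with Dox by 0.55 ± 0.15 (adjusted p = 0.047). It was higher than in Ctrl by 1.48 ± 0.15 in WT and 2.68 ± 0.15 in K26, and higher in K26 than in WT by 1.21 ± 0.15. The overexpression lines thus also differed in H1-2. The H1-4 probe was not detected in any hairpin line, so depletion of H1.4 in sh120 could not be checked, and it was detected on all WT and K26 arrays. The probes of H1-1, H1-3 and H1-5 were not detected on any array, so their depletion in sh225 could not be checked either. Of the 24530 probes, 9477 to 10286 were detected per array. Arrays of a group correlated at r = 0.989 to 0.994 across the 9654 tested items. All 12 luminal epithelial markers were tested. Against Ctrl 5 were lower and 2 higher in WT and 7 lower and 1 higher in K26, where PGR, the progesterone receptor, fell by 1.75 ± 0.12, TFF3, a secreted trefoil peptide, by 1.28 ± 0.11 and ESR1, the oestrogen receptor, by 1.02 ± 0.16. In K26 against WT 3 were lower and 0 higher, and with Dox in sh225 3 were lower and 2 higher. Of all items 31.8% were called in WT and 51.4% in K26 against Ctrl. In K26 against WT 22.9% were called (12.8% lower), and with Dox in sh225 35.6%. The numbers of markers called either way in K26 against WT and with Dox in sh225 are near those shares. The part of these marker shifts in the member results was not tested. Of 7 leukocyte markers with a probe, 1, CD68, was detected in the hairpin lines and 2 in WT and K26, where CD14 was added. The defining markers PTPRC, CD3E, LYZ and TYROBP were undetected on all arrays. CD14 was higher in K26 than in WT by 1.09 ± 0.22 (adjusted p = 0.00157), as CXCL8 was. It was detected on the 4 arrays of these lines and no others, so like CXCL8 it passed the filter through them alone. As a description, its WT level was at least 1.54-fold that of Ctrl. The summed scanner intensity of the 7 leukocyte markers was 560.6 to 580.1 in Ctrl, 633.9 to 668.7 in sh225, 735.2 to 746.0 in WT and 843.5 to 881.8 in K26. These sums are not normalized, and 5 of the 7 markers failed the filter. The 4 endothelial markers were undetected on all arrays, yet their sum was higher in the second run too. It was 276.8 to 308.8 in Ctrl, 320.4 to 329.5 in sh225, 355.6 to 381.2 in WT and 342.1 to 365.9 in K26. The leukocyte sums are thus no measure of leukocyte content. The part of CD14-positive cells in the CXCL8 difference was not tested. In these bulk samples fewer cells expressing a gene and less RNA per cell cannot be told apart.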

How the data were processed

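Intensities per probe and array with detection p-values were deposited by the authors in a scanner table, and GenomeStudio 1.6.0 appears in the submitters' processing notes. The authors also deposited a normalized table of linear intensities, used as an alternative; the sources used here do not give its normalization. Set against each other, 1094 of 24530 probes (4.46%) differed between these files by over 0.3 on the log2 scale after a smooth map, none of them a probe of the genes described.

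Scanner intensities went through neqc of limma 3.58.1 in R 4.3.3 (background correction with controls inferred from detection p-values, offset 16, quantile normalization, log2). The filter kept 11258 probes with a detection p under 0.01 on 2 or more arrays of 16, and per symbol the probe of highest mean was tested, giving 9654 items. Symbols came from the platform annotation: 23266 probes had 1 symbol and 1264 none. All arrays entered a single limma fit of 8 group means (lmFit, contrasts.fit, trended eBayes, residual degrees of freedom 8). P-values were adjusted by Benjamini-Hochberg across the 9654 items and called under 0.05. On simulated data with 100 items changed by 1 and 100 by 2 on the log2 scale with Dox in sh225, 89 and 100 were recovered, with 5 false calls. The simulated noise was independent between arrays and held no run effect. These figures therefore check the fit and do not measure error rates in the real comparisons. Where no array of a group detected a probe, its level there was replaced on each array by that array's dimmest detected level, or by its own if higher, and the ratio is written as "at least N-fold".

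Members and gene lists were chosen with earlier results of these data known. Named from the lists were at most 3 called genes of largest difference per list and comparison. Promoter sequences came from RefSeq (GRCh38.p14), in which 9 of the 10 genes were matched. The number of arrays, 2 per group, limits the precision. Alternatives were the background correction, the scaling between arrays, the filter, the choice of probe, the samples in the fit, the variance prior, the authors' normalized table, a replicate block and leaving out each array.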

Additional observations from a re-analysis of the deposited data

Results flagged for a closer look

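The Dox effect differed between hairpin lines, by a test of the difference itself, for the following members. Between sh225 and Ctrl the difference was 2.14 ± 0.33 (log2 ± SE) for CCL20, 2.09 ± 0.22 for TNFAIP3, 1.37 ± 0.16 for SOD2 and 1.01 ± 0.26 for RELB. Between sh225 and sh120 it was 1.44 ± 0.33 for CCL20, 1.25 ± 0.22 for TNFAIP3, 1.11 ± 0.16 for SOD2, 1.44 ± 0.26 for RELB and 0.77 ± 0.22 for NFKB2. In the authors' normalized table these were 1.33 for CCL20, 1.08 for TNFAIP3 and 0.41 for RELB against Ctrl, and 0.85, 0.69 and 0.58 against sh120, with 0.43 for NFKB2. The NFKB2 call against sh120 was lost under 7 alternatives, and a second NFKB2 probe (0.42 ± 0.22) was not called. The RELB call against Ctrl was lost under 3 alternatives. The adjusted p-values stand in the report. Both sets of differences share the sh225 arrays. These belong to another run of array numbers than the Ctrl and sh120 arrays, so the run and the line cannot be told apart.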

How the results depend on the processing

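Of 66 member results measured in all groups of their comparison, 26 were called, and over their 419 alternatives 390 kept direction and call, 29 lost the call and 0 reversed. For the 40 not called, 578 of 617 alternatives changed neither, 19 gained a call and 20 changed sign. Keeping only probes detected on all arrays left 4 testable members (CCL20, TNFAIP3, SOD2, NFKB2), so the counts of called members, among 7 tested otherwise, became 3 for the sh225 against Ctrl Dox effects, 0 for K26 against WT, 1 for WT and 1 for K26 against Ctrl, and 2 for each against sh225. For WT against Ctrl the count became 4 under median scaling and 4 with the mean of the kept probes. For sh225 against Ctrl without Dox it became 1, CCL20, under median scaling, with the authors' normalized table and with the replicate block (adjusted p = 0.0403). Leaving out 1 array gave 2 to 3 called members for Dox in Ctrl (2 without Ctrl replicate 1 or Ctrl_Dox replicate 1), 1 to 3 for K26 against Ctrl (1 without Ctrl replicate 2) and 0 to 1 for sh225 against Ctrl (1 without sh225 replicate 1).

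Sign changes, none of a called result, were as follows. With 1 array left out CCL20 ran from -0.28 to 0.49 for Dox in sh225 and from -0.18 to 0.13 for K26 against WT, TNFAIP3 from -0.059 to 0.16 for Dox in sh120, and RELB from -0.16 to 0.28 for K26 against WT and -0.12 to 0.16 for sh225 against Ctrl. NFKB2 ran from -0.19 to 0.15 for K26, -0.32 to 0.024 for sh225 and -0.23 to 0.11 for sh120 against Ctrl, and SOD2 from -0.12 to 0.012 for sh225 against Ctrl. With the mean of the kept probes SOD2 was 0.073 for K26 and 0.087 for sh225 against Ctrl, and NFKB2 0.16 for K26 against Ctrl. Under median scaling NFKB2 was 0.028 for K26 and SOD2 0.0077 for sh225 against Ctrl. The cause was not tested. The labels do not pair arrays across groups (deviations of arrays with the same number correlated at -0.36 to 0.32), and the replicate block changed no other count of called members by over 1.5 times. Signals near the detection limit restrict RELB, CXCL8, IL23A and ICAM1.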
